A study of Mus musculus with 27 samples.

Results

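The genes described here are the solute carriers of families Slc1, Slc2, Slc6, Slc7, Slc16, Slc30, Slc38 and Slc39, which carry amino acids, sugars, monocarboxylates and zinc across membranes. They were chosen by symbol alone, and 108 of the 53379 rows of the deposited expression table matched. Of these, 74 passed the filter on low values used for testing, which asked that 3 or more of the 27 libraries reach 1 TPM (transcript abundance per length, scaled to the same total in every library). The other 34 never exceeded 2.04 TPM in any library, and Slc6a19os and Slc7a12 were listed at 0 throughout. Slc39a1-ps, a pseudogene row, was above 0 in 2 libraries only, at 0.07 and 0.09 TPM.

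The RNA, selected for poly(A) tails, came from E14, a line of mouse embryonic stem cells kept on gelatin with LIF. Cells received siPTBP1 together with siPTBP2 (the double knockdown), siPTBP1 alone, or siGFP as the control. All 3 treatments were given at the start and again after 24 h, with harvest at 48 h. The labels give 20 uM siRNA for every library. Each treatment was separated into chromatin (CH), nucleoplasm (NP) and cytoplasm (CY), and each of the 9 groups held 3 libraries described as biological replicates. Ptbp1 and Ptbp2 encode polypyrimidine tract binding proteins, which regulate splicing. No genetic change, animal or second cell line was involved.

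A carrier of this kind is made by ribosomes docked on the endoplasmic reticulum (ER), where each hydrophobic stretch of the growing chain is placed in the membrane. Its mRNA is therefore known to be found largely at ER membranes rather than free in the cytosol. Mitochondrial carriers of family Slc25 are also multi-pass proteins, but they are translated mostly in the cytosol and imported afterwards. Most genes described here act at the cell surface, while some are known from internal membranes: Slc30a5, Slc30a6 and Slc30a7 from the Golgi and secretory pathway, Slc39a7 from the ER, and Slc38a9 from lysosomes. RNA levels cannot show where the proteins sit.

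The hydrophobic stretches are visible in the genes themselves, because codons with T at the second position encode only hydrophobic residues of the kind that fill a membrane span (phenylalanine, leucine, isoleucine, methionine and valine). The most hydrophobic window of 19 codons is shown for 4 genes with far higher TPM in NP than in CY. It is also shown for 2 well expressed genes without that difference. Each is written 5′ to 3′ on the coding strand, from GENCODE M21 transcripts (mm10), with T at second codon positions in capitals.
Slc7a3: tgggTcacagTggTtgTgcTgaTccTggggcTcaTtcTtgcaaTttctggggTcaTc
Slc38a2: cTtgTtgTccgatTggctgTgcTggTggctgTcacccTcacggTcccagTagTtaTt
Slc2a1: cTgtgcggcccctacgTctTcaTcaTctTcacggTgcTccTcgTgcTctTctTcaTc
Slc1a4: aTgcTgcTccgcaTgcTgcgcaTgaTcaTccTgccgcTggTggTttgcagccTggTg
Slc30a9: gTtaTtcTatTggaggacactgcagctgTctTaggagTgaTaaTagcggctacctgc
Slc7a6os: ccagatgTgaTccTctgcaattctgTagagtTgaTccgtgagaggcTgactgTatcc

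The Slc7a3 stretch lies in exon 11 at chrX:101080140-101080196, minus strand, and has a second-position T in 13 of its 19 codons. That of Slc38a2 lies in exon 13 at chr15:96691685-96691741, minus strand, with 13, and that of Slc2a1 in exon 10 at chr4:119136249-119136305, plus strand, with 14. The Slc1a4 stretch lies in exon 1 at chr11:20332176-20332232, minus strand, also with 14. The capitals thin out in the other pair, but the genes were picked as examples, and no trend among transporters can be read from them. Slc30a9 (chr5:67346155-67346211, plus strand, exon 14) has 9, and its mean hydropathy per residue on the Kyte-Doolittle scale is 2.02, below but close to the 2.17 of the Slc1a4 window; those of Slc7a3, Slc2a1 and Slc38a2 have 2.78, 2.68 and 2.60. Slc7a6os (chr8:106204475-106204531, minus strand, exon 3), which the symbol rule picked up but which is not a transporter gene, has 8 and a mean hydropathy of 0.45. Over whole coding sequences, a median of 36.94% of codons had T at the second position in the tested transporter rows, 31.01% in tested Slc25 genes and 26.37% in other tested genes.

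Libraries of different fractions differed in composition. Between 17301 and 19509 genes reached 1 TPM in CH, 13849 to 14999 in NP and 11837 to 13478 in CY. Mitochondrially encoded RNA took 0.511% to 1.68% of TPM in CH, 9.31% to 22.5% in NP and 0.0416% to 0.111% in CY. Pluripotency markers summed to 1475 to 2446 TPM in CH, 2966 to 4334 in NP and 3223 to 4342 in CY, and marker lists of other lineages were far lower, at most 150.8 TPM for fibroblast markers in CH. TPM keeps no read depth, so the number of reads behind any value is unknown. Libraries numbered replicate 1 had stood apart in earlier results of these data, and counts without them are given beside the main results. Ptbp1 averaged 142 ± 50.1 TPM in CY of the double knockdown and 123 ± 18.1 TPM after siPTBP1, against 549 ± 56.2 TPM in siGFP (SD, n = 3 each). In CH its level was 287 ± 61.8 TPM in the double knockdown and 243 ± 50.7 TPM after siPTBP1, against 514 ± 156 TPM in siGFP, and these differences were called with the replicate number as a block (limma adjusted p = 0.0303 and 0.00541) but not without it (0.367 and 0.16). Ptbp2 had 1.45, 7.29 and 7.55 TPM in CY of the double knockdown, against 3.52, 15 and 15.45 TPM in siGFP, lower in each replicate number (log2 difference -0.93, limma adjusted p = 1, 0.00113 with the block). In NP the difference was -0.78 (limma adjusted p = 1, 0.00714 with the block), and in CH -0.21, not called.

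In control cells the leading transporters were those of glucose, amino acids and lactate. Levels are per transcript length and can be set side by side. Slc2a3, a neuronal-type glucose transporter also known from early embryos, and Slc2a1, the general glucose transporter, had the highest means over the 3 fractions, 469.6 and 448.6 TPM in siGFP. The leading members of the other families were Slc7a5, the large neutral amino acid transporter; Slc16a3, a lactate exporter; Slc38a2, a sodium-coupled neutral amino acid importer; Slc1a5, a glutamine exchanger; Slc39a7, a zinc exporter of the ER; Slc6a6, the taurine transporter; and Slc30a9. Among them, Slc7a5 had 610.9, 470.7 and 476.9 TPM in NP, against 131, 141.2 and 127.3 TPM in CY, and Slc16a3 had 500.6, 480.6 and 279.3 TPM in NP, against 75.15, 82.13 and 50.31 TPM in CY. All 108 rows together made up 4890 ± 761 TPM in CH, 4839 ± 523 in NP and 980 ± 94.4 in CY (SD, n = 3 each).

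**Figure D1:**
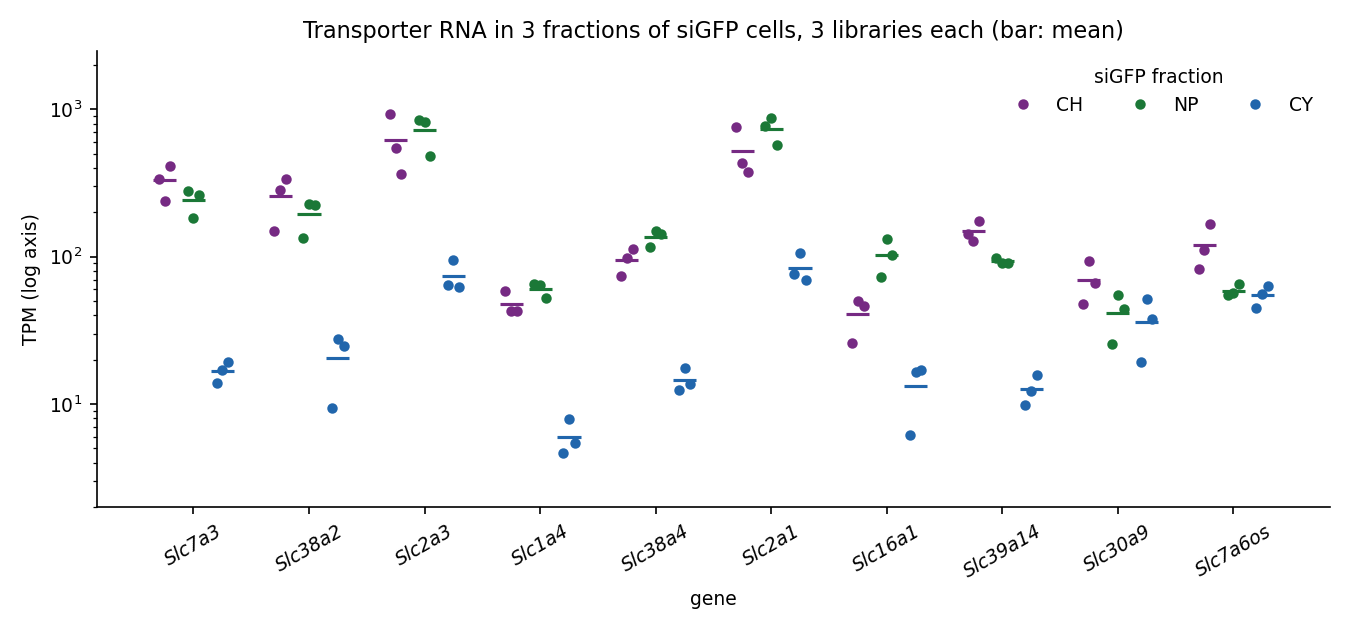
TPM on a log axis of 10 genes in the CH, NP and CY libraries of siGFP cells, 3 libraries each, with the mean as a bar. For Slc7a3 the CH and NP libraries start at 183.9 TPM and the CY libraries end at 19.41 TPM, while Slc30a9 and Slc7a6os overlap between NP and CY.

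The first question was how the TPM of transporter genes differed between nucleoplasm and cytoplasm. TPM is a share of each library's total, so a higher value in NP is a larger share and does not show more molecules there. In siGFP cells 47 of the 74 tested rows were higher in NP than in CY and 0 were lower, by limma with Benjamini-Hochberg adjustment over all genes tested. Among all 20611 genes tested 12.3% were higher and 0.461% lower. The median log2 difference, on the log2(TPM + 1) scale used throughout, was 1.37 for the transporters and 0.15 for all genes. Some rows passed the filter only through one fraction; among the 46 with at least 1 TPM in every siGFP CY library, 37 were higher in NP, with a median of 1.83, where 12.9% of all genes so selected were higher. With the replicate number as a block, 61 rows were higher and 0 lower, where 23.5% of all genes were higher and 4.74% lower. Without replicate 1 of every group the counts were 46 and 0. Median-ratio scaling gave 41 and 0, and quantile normalization 37 and 0. Without replicate 1 or under these scalings, the shares of all genes called are not given, here or below. Those counts therefore have no reference. Relative to the median of all genes, the transporters' median stood at 1.21 on the deposited scale, 1.07 with median-ratio scaling and 1.10 with quantile normalization.

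Slc7a3, a transporter of arginine and lysine, had 279.2, 183.9 and 261 TPM in NP, against 13.86, 16.94 and 19.41 TPM in CY. The NP libraries lay far above all CY libraries, and the log2 difference of 3.76 (SE 0.264, limma adjusted p = 2.13e-09) was the largest among the tested rows. Slc38a2 had 134, 228.3 and 223.3 TPM in NP, against 9.33, 27.6 and 24.69 TPM in CY (3.28, SE 0.521, limma adjusted p = 9.41e-05). In both fractions its replicate 1 library was the lowest. Slc1a4, known as ASCT1 and an exchanger of alanine, serine and cysteine, had 65.39, 64.09 and 52.13 TPM in NP, against 4.67, 7.9 and 5.43 TPM in CY (3.16, SE 0.225, limma adjusted p = 2.44e-09). Slc38a4, an amino acid transporter known as an imprinted gene in mouse, had 115.8, 149.8 and 143.1 TPM in NP, against 12.39, 17.47 and 13.77 TPM in CY (3.15, SE 0.327). None of these genes had overlapping libraries between NP and CY, which the choice of genes to name required.

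Both main glucose transporters had gaps of similar size. Slc2a3 had 849.4, 825.6 and 482.4 TPM in NP, against 64.18, 94.95 and 62.49 TPM in CY (3.25, SE 0.386, limma adjusted p = 2.78e-06). Slc2a1 had 767.4, 874 and 572 TPM in NP, against 76.78, 106.1 and 69.64 TPM in CY (3.12, SE 0.342, limma adjusted p = 9.66e-07). The lowest NP library stood well above the highest CY library in each gene. Reads of Slc2a1 and of 2 antisense genes that overlap it, Gm12867 and Gm12868, could be shared, since the strand setting of the counting is not given. The same holds for Slc7a5 with Gm20388 on the opposite strand, and Slc2a3 and Slc39a7 overlap the same-strand genes Gm4482 and Gm20427.

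By family, the calls were spread over all of them. In Slc38, the sodium-coupled neutral amino acid transporters, 9 of 10 tested rows were higher in NP; in Slc7, the cationic amino acid transporters and light chains of heteromeric transporters, 9 of 12. Of the Slc39 zinc importers 8 of 11 were higher, and of the Slc30 zinc exporters 5 of 9. Slc2 had 5 of 8, Slc16 (monocarboxylates) 6 of 10 and Slc1 (glutamate and neutral amino acids) 3 of 6. Slc6, the sodium- and chloride-coupled transporters of neurotransmitters and osmolytes, had 2 of 8, namely Slc6a6 (2.27, SE 0.212) and Slc6a9, a glycine transporter (1.94, SE 0.216). Slc6a8, the creatine transporter, had 50.31, 48.39 and 40.34 TPM in NP, against 29.92, 28.57 and 41.06 TPM in CY, and was not called (0.48, SE 0.244, limma adjusted p = 0.254). No test was made of differences between families.

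Zinc carriers of the surface and of internal membranes were both among the calls. Slc39a10, a zinc importer of the surface, had 15.44, 45.92 and 42.37 TPM in NP, against 1.69, 4.24 and 4.87 TPM in CY (2.89, SE 0.655, limma adjusted p = 0.0036). Slc39a14 averaged 93.1 ± 4.63 TPM in NP and 12.6 ± 2.96 TPM in CY (2.81, SE 0.232). Slc39a7, which releases zinc from the ER, had 170.6, 136.6 and 141.1 TPM in NP, against 73.73, 49.62 and 61.05 TPM in CY (1.28, SE 0.259, limma adjusted p = 0.00128). The Golgi exporters Slc30a5, Slc30a6 and Slc30a7 were also higher, by 1.81, 2.11 and 2.17, and Slc30a1, the exporter of the plasma membrane, by 1.56. None of Slc39a10, Slc39a14 and Slc39a7 had overlapping libraries. These further zinc carriers were picked after their values were seen, apart from Slc39a7 and Slc39a14.

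The same pattern was seen after both siRNA treatments. In the double knockdown 52 rows were higher in NP than in CY and 0 lower, where 15.4% of all genes were higher and 4.66% lower. After siPTBP1 the counts were 53 and 0, where 13.6% of all genes were higher and 3.88% lower. Of the 74 rows, 46 were called in all 3 treatments, 54 were called in at least 1, and 20 in none. The matching shares of all genes over the 3 treatments are not given, so these counts have no reference.

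**Figure D2:**
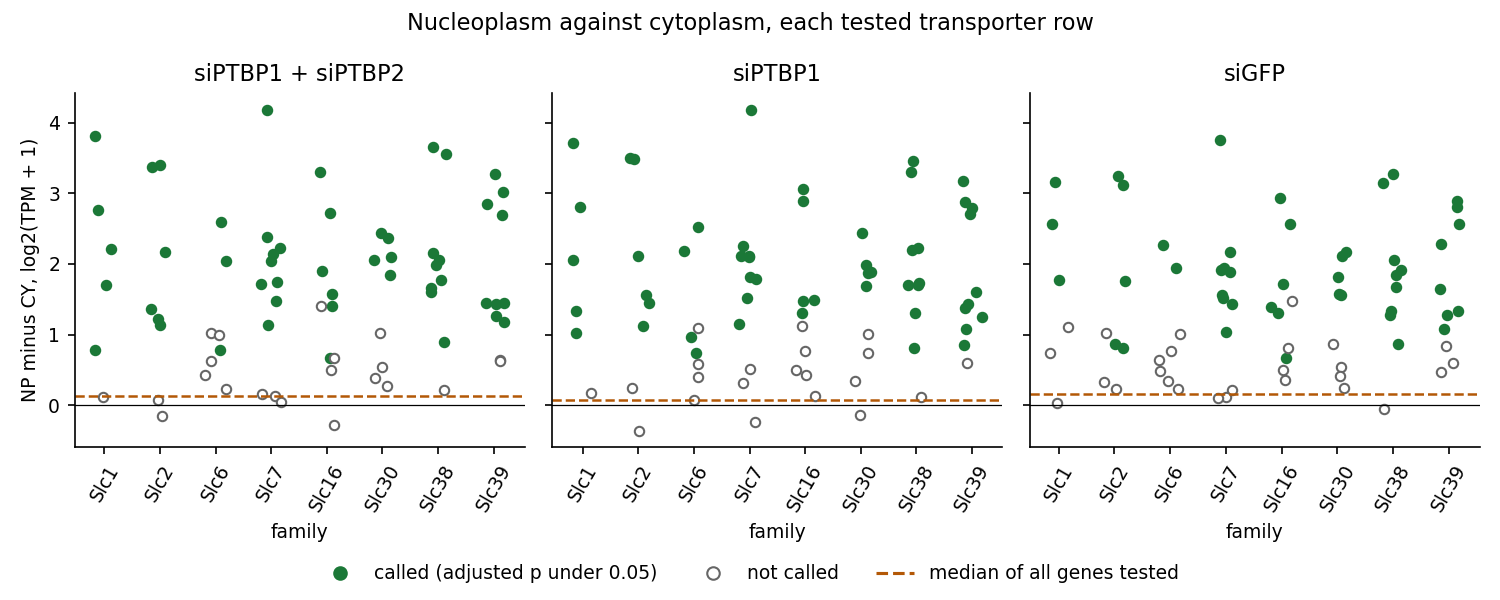
NP minus CY on the log2(TPM + 1) scale for each of the 74 tested rows, by family, in the double knockdown, after siPTBP1 and in siGFP; filled points are called, open points are not, and the dashed line is the median of all 20611 genes. The called points all lie above 0, and the dashed lines stand at 0.12, 0.07 and 0.15 in the 3 panels.

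Of the 20 rows without a call, Slc30a9 and Slc7a6os averaged 48.96 and 77.9 TPM over the siGFP fractions, and the next, Slc39a11, 10.21 TPM. Slc30a9, a member of the zinc exporter family known from mitochondria and the nucleus, had 25.49, 54.81 and 44.33 TPM in NP, against 19.15, 51.27 and 37.78 TPM in CY (0.24, SE 0.561, limma adjusted p = 0.896). The libraries overlapped. Slc7a6os, a gene next to Slc7a6 that is named only for its place on the opposite strand, had 54.59, 56.29 and 65.28 TPM in NP, against 45.04, 55.67 and 63.65 TPM in CY (0.11, SE 0.296, limma adjusted p = 0.916). The libraries overlapped here too. Its coding sequence held 0 hydrophobic segments, against 4 or more in every other tested row with a coding sequence.

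The partners of these transporters were also higher in NP. Slc3a2 (4F2hc), the heavy chain that carries Slc7a5 and its relatives to the surface, averaged 741 ± 87.4 TPM in NP and 184.5 ± 32.6 TPM in CY (log2 difference 2.01, limma adjusted p = 5.63e-06). Bsg (basigin), the chaperone of the lactate transporters, averaged 568 ± 95.2 TPM in NP and 220 ± 37.9 TPM in CY (1.36, limma adjusted p = 0.00693). For these lists, 12.3% of all genes tested were higher in NP and 0.461% lower, and with the block 23.5% and 4.74%. The 4 tested accessory subunits were all called. Of 11 metal carriers of other families 7 were higher in NP (median 1.08), and of 27 genes of the ER translocon and membrane insertion machinery 16 were (median 1.22). Of 5 genes of zinc sensing and storage, 0 were called in either direction (median -0.24), with Mt3 lower under the block (-0.51). Of 16 genes of the ATF4 stress response outside the transporters, 1 was higher (median of the list -0.245), and that was Vldlr, a lipoprotein receptor of the membrane (1.63, limma adjusted p = 0.0174). With the block 3 genes of that list were lower, among them Atf4 (-0.42) and Chac1 (-0.49). Of 11 hypoxia response genes outside the transporters, 2 were higher (median -0.09).

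Of 42 tested Slc25 mitochondrial carriers, 4 were higher in NP and 0 lower, or 9.52%, near the 12.3% of all genes, with a median log2 difference of 0.02. With the block 7 were higher and 3 lower, where 23.5% and 4.74% of all genes were. The difference between them and the transporters was not tested.

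The number of hydrophobic segments was counted in each coding sequence as non-overlapping windows of 19 residues with a mean Kyte-Doolittle hydropathy of at least 1.6. The transporter rows had a median of 8 segments. The share of them called higher in NP was 44.4% of 9 rows with 4 to 5 segments, 70.0% of 20 with 6 to 7, 68.0% of 25 with 8 to 9 and 61.1% of 18 with 10 or more. Among the 14049 other tested genes with a coding sequence, 4.41% of those with 0 segments were higher in NP, 25.4% with 1, 36.9% with 2 to 3, 35.8% with 4 to 5, 49.6% with 6 to 7, 65.8% with 8 to 9 and 66.7% with 10 or more. With 4 or more segments the shares were 63.9% of 72 transporter rows and 47.1% of 1003 other genes. The difference was not tested. The count can miss membrane spans, since the Slc25 carriers, also multi-pass proteins, had a median of 1 segment. The 4 called among them were of the 16 with 0 segments. Between the log2 difference and the number of segments, Pearson's r was 0.10 and Spearman's rho 0.0465 over the 73 transporter rows with a coding sequence, and r was 0.373 and rho 0.416 over the 14049 other genes. Genes share libraries and sequence ancestry and are not independent, so these are descriptions.

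**Figure D3:**
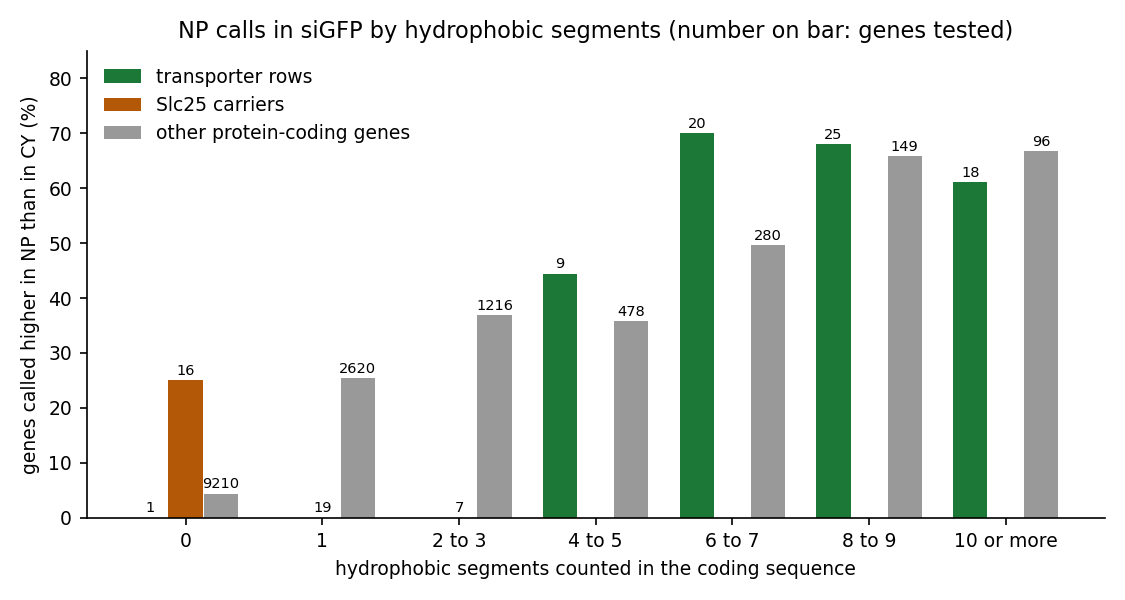
Percent of tested genes called higher in NP than in CY of siGFP, by number of hydrophobic segments, for transporter rows, Slc25 carriers and other genes with a coding sequence, with the number of genes above each bar. The bar of other genes is 4.41% at 0 segments and 66.7% at 10 or more.

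Other RNA differed between these libraries too. Beside the 16 of 27 ER translocon genes called higher in NP, mitochondrially encoded RNA was 9.68% to 15.6% of TPM in siGFP NP, against at most 0.111% in siGFP CY. Nuclear noncoding RNA summed to 137 to 349 TPM in NP over all treatments, against 35.9 to 67.4 TPM in CY. How much nucleus, ER or mitochondrion each fraction held was not measured, and the part of any of them in the transporters' NP levels was not tested.

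Against cytoplasm, transporter RNA took a larger share in chromatin as well, though so did the RNA of most genes. In siGFP 68 of 74 rows were higher in CH than in CY and 0 lower (median 1.83), while 57.9% of all genes were higher and 8.08% lower (median 0.95). Some rows passed the filter without reaching 1 TPM in CY, such as Slc6a7, which did so only through CH; among the 46 with at least 1 TPM in every siGFP CY library, 42 were higher and 0 lower (median 2.05), where 45.9% of all genes so selected were higher and 13.7% lower. Slc7a3, at 338, 238.7 and 411.6 TPM in CH (limma adjusted p = 4.22e-11), Slc1a5 (3.77, SE 0.185, limma adjusted p = 1.69e-12), Slc38a2 (3.63), Slc2a4rg-ps (3.63), Slc38a6 (3.55) and Slc39a14 (3.47), a zinc, iron and manganese importer, had the largest log2 differences. Slc1a5 had 246.7, 276.4 and 238.2 TPM in CH, against 16.82, 21.49 and 15.13 TPM in CY, with no overlap. With quantile normalization 32 rows were higher and 8 lower, a count without the share of all genes beside it. Relative to the median of all genes, the transporters' median stood 0.87 higher on the deposited scale, 0.61 with median-ratio scaling and 0.64 with quantile normalization. In the double knockdown 65 rows were higher in CH than in CY and 0 lower, where 60.4% of all genes were higher and 9.24% lower. After siPTBP1 the counts were 66 and 0, where 57.8% of all genes were higher and 8.82% lower. With quantile normalization 30 were higher and 11 lower in the double knockdown, and 28 and 8 after siPTBP1. Without replicate 1 of every group, 66 rows were higher and 0 lower in siGFP.

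Between chromatin and nucleoplasm the direction depended on the scaling. On the deposited TPM scale 23 rows were higher in CH and 1 was lower, where 46.0% of all genes were higher and 5.48% lower. The transporters' median log2 difference of 0.35 lay below that of all genes, 0.68. Among the 59 rows with at least 1 TPM in every siGFP NP library, 16 were higher and 1 lower, where 37.0% of all genes so selected were higher and 8.42% lower. With median-ratio scaling 8 rows were higher and 14 lower, and with quantile normalization 7 higher and 21 lower. The shares of all genes called under these scalings are not given, so these counts have no reference. Relative to the median of all genes the transporters' median stood at -0.33, -0.31 and -0.28 under the 3 scalings. With the block, 33 were higher and 10 lower, where 57.0% of all genes were higher and 9.95% lower. Without replicate 1 of every group, 23 were higher and 6 lower. Leaving out single libraries gave 16 to 28 calls.

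The genes highest in CH relative to NP kept that direction and their calls under median-ratio scaling and quantile normalization. Slc2a4rg-ps, a pseudogene of a transcription factor and not a transporter, had 14.52, 11.8 and 16.54 TPM in CH, against 0.96, 1.53 and 0.98 TPM in NP (2.82, SE 0.202, limma adjusted p = 1.11e-09). Slc38a6, a member of the sodium-coupled neutral amino acid family, had 31.81, 48.92 and 42.91 TPM in CH, against 6.47, 10.14 and 7.56 TPM in NP (2.22, SE 0.271, limma adjusted p = 9.64e-07). In both genes every CH library was above every NP library. The next were Slc6a7, the brain proline transporter (2.09), Slc6a16, an orphan carrier (1.83), Slc39a13, a Golgi zinc transporter (1.62), and Slc38a9, the lysosomal arginine sensor (1.47). Slc6a7 was low, at 3.14, 7.48 and 4.57 TPM in CH, against 0.27, 0.65 and 0.21 TPM in NP. Slc39a13 overlaps Psmc3 on the opposite strand over 4579 bases, and Slc38a9 overlaps antisense Gm47827 over 16558 bases, so reads of these genes cannot be assigned with certainty.

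A single row was called lower in CH than in NP. Slc16a1 (MCT1), the widely expressed lactate and pyruvate carrier, had 26.08, 49.73 and 46.24 TPM in CH, against 73.31, 132.8 and 103 TPM in NP (-1.33, SE 0.54, limma adjusted p = 0.044). The groups did not overlap. The adjusted p was 0.00078 with the block and 0.044 to 0.151 when single libraries were left out.

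**Figure D4:**
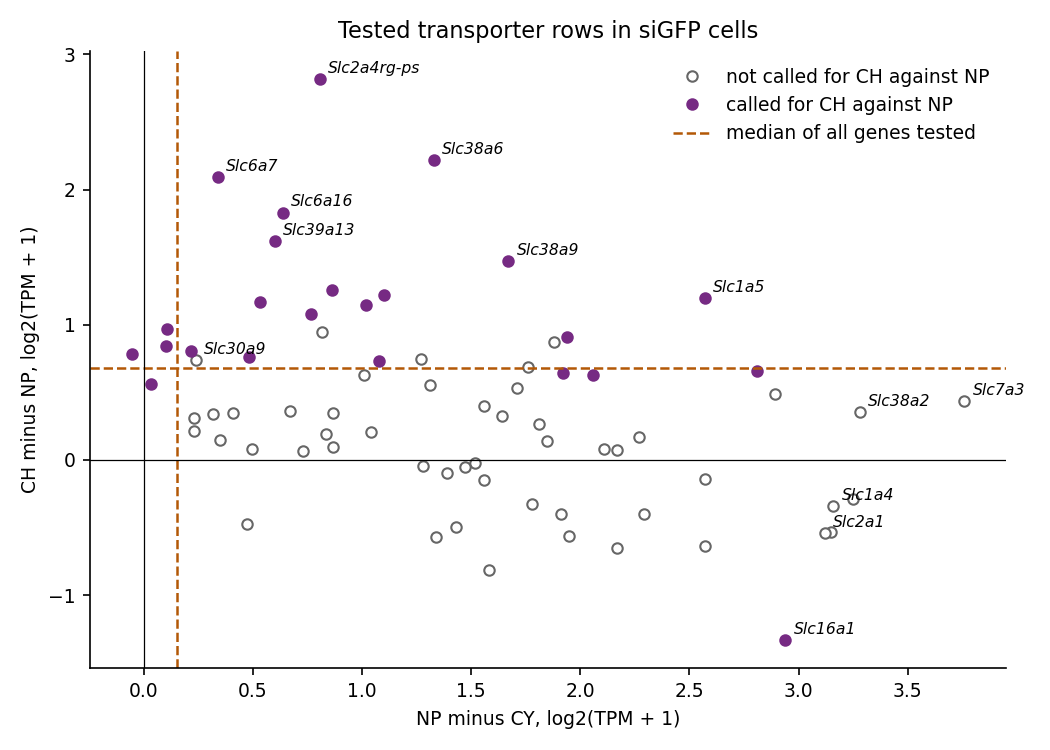
Log2 differences of the 74 tested rows in siGFP cells, with NP minus CY on the horizontal and CH minus NP on the vertical axis, both on the log2(TPM + 1) scale; filled points are called for CH against NP and dashed lines are the medians of all genes, 0.15 and 0.68. The axes share the NP libraries, so their joint slope has no meaning of its own; Slc16a1 is the lowest point at -1.33 and Slc2a4rg-ps the highest at 2.82.

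The second question was what the knockdowns did to transporter RNA. Without the block, limma called 1 row in 1 contrast against siGFP, which does not show that the others were unaltered. In bulk samples, a smaller share of cells of some kind and less RNA per cell cannot be told apart. That call was Slc1a4 in NP after siPTBP1: 145.1, 142 and 111.4 TPM after siPTBP1, against 65.39, 64.09 and 52.13 TPM in siGFP. All siPTBP1 libraries lay above all siGFP libraries, and the log2 difference was 1.12 (SE 0.225, limma adjusted p = 0.0411). That is 1 of 74 rows, where 0.16% of all genes were called in either direction. The block gave an adjusted p of 0.00327. Without replicate 1 of every group it was 0.0376. With single libraries left out the log2 difference was 1.02 to 1.24. The call held without siPTBP1 replicate 3 (0.0454) and was lost in the other 5 fits: without siPTBP1 replicate 1 or 2 it was 0.182 and 0.231, and without siGFP replicate 1, 2 or 3 it was 0.101, 0.11 and 0.275. A pseudocount of 0.1 gave 0.0584, no filter 0.0725, and a fit of the groups compared only 0.398.

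In the double knockdown Slc1a4 in NP had 144.5, 128.1 and 106.8 TPM, against the same 3 siGFP values, a log2 difference of 1.05 with limma adjusted p = 0.0712 (0.00613 with the block). Both comparisons share the siGFP libraries. The difference in CY was 0.38 in the double knockdown and 0.56 after siPTBP1, and in CH 0.57 and 0.63, none called. Median-ratio scaling gave 0.0479 and rescaling without mitochondrial genes and Mir6236 0.0249 for the double knockdown in NP. Slc1a4 lies at chr11:20302180-20332713 on the minus strand.

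With the replicate block 4 further genes were called higher in NP after siPTBP1, which makes 5 of 74 rows where 1.88% of all genes were called in either direction. Slc16a13, an orphan member of the monocarboxylate family, had 32.22, 22.51 and 22.42 TPM after siPTBP1, against 14.8, 11.43 and 11.66 TPM in siGFP (0.96, limma adjusted p = 0.603, 0.0103 with the block). Slc7a7 (y+LAT1), which exports arginine and lysine, had 501.1, 333.7 and 419.7 TPM after siPTBP1, against 286.2, 217.1 and 271.1 TPM in siGFP (0.68, limma adjusted p = 0.782, 0.00918 with the block). In each gene the siPTBP1 libraries lay above the siGFP libraries. Slc38a7, a glutamine and asparagine transporter known from lysosomes, had 92.81, 73.51 and 68.93 TPM after siPTBP1, against 57.14, 42.28 and 43.47 TPM in siGFP (0.71, limma adjusted p = 0.304, 0.018 with the block). Slc39a7 had 260.9, 204.8 and 181.3 TPM after siPTBP1, against 170.6, 136.6 and 141.1 TPM in siGFP (0.52, limma adjusted p = 1, 0.0499 with the block). Both again had no overlap between treatments. Slc7a7 overlaps Oxa1l on the opposite strand over 232 bases.

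In the double knockdown the block called 4 rows in NP, where 1.84% of all genes were called: Slc1a4, Slc7a7 (0.72, 0.00677 with the block), Slc38a7 (0.70, 0.0201) and Slc16a13 (0.92, 0.0155). Without the block limma called 0 in NP of the double knockdown, where 0.155% of all genes were called. At an unadjusted p under 0.05 there were 7 rows, and in NP after siPTBP1 there were 9. The share of all genes at that unadjusted level was not counted, here or below, so these counts have no reference. In CY, Slc16a13 was called only with the block, at 12.11, 7.9 and 4.47 TPM in the double knockdown and 10.79, 8.54 and 6.66 TPM after siPTBP1, against 4.8, 4.79 and 3.11 TPM in siGFP. The double knockdown libraries overlapped with those of siGFP, the siPTBP1 libraries did not. The block's adjusted p was 0.0446 in the double knockdown and 0.0187 after siPTBP1, where 2.65% and 1.83% of all genes were called. Without the block limma called 0 rows in either, where 0.243% and 0.228% of all genes were called. At an unadjusted p under 0.05 there were 3 and 4 rows.

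In chromatin, Slc7a6 (y+LAT2), the close relative of Slc7a7, had 117.5, 148.4 and 146.1 TPM in CH of the double knockdown and 129.4, 155.5 and 150.9 TPM after siPTBP1, against 80.08, 72.79 and 92.73 TPM in siGFP. All knockdown libraries lay above the siGFP libraries. The log2 difference was 0.74 in the double knockdown (limma adjusted p = 0.13, 0.00893 with the block) and 0.82 after siPTBP1 (0.0798, 0.00409 with the block). The other fractions also had positive differences for Slc7a6, 0.13 in CY and 0.34 in NP of the double knockdown and 0.46 in CY and 0.41 in NP after siPTBP1, none called with or without the block; whether CH differed from them was not called in the test of the shift from CY and was not tested against NP. Slc6a7 was called lower with the block after siPTBP1, at 1.74, 3.82 and 2.39 TPM, against 3.14, 7.48 and 4.57 TPM in siGFP (-0.71, limma adjusted p = 0.28, 0.036 with the block), although the libraries overlapped. The block thus called 1 of 74 rows in CH of the double knockdown and 2 after siPTBP1, where it called 2.12% and 2.45% of all genes, so the shares were near those of all genes. Without it limma called 0 rows in CH of either knockdown, where 0.427% and 0.398% of all genes were called. At an unadjusted p under 0.05 there were 8 rows in the double knockdown and 4 after siPTBP1.

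**Figure D5:**
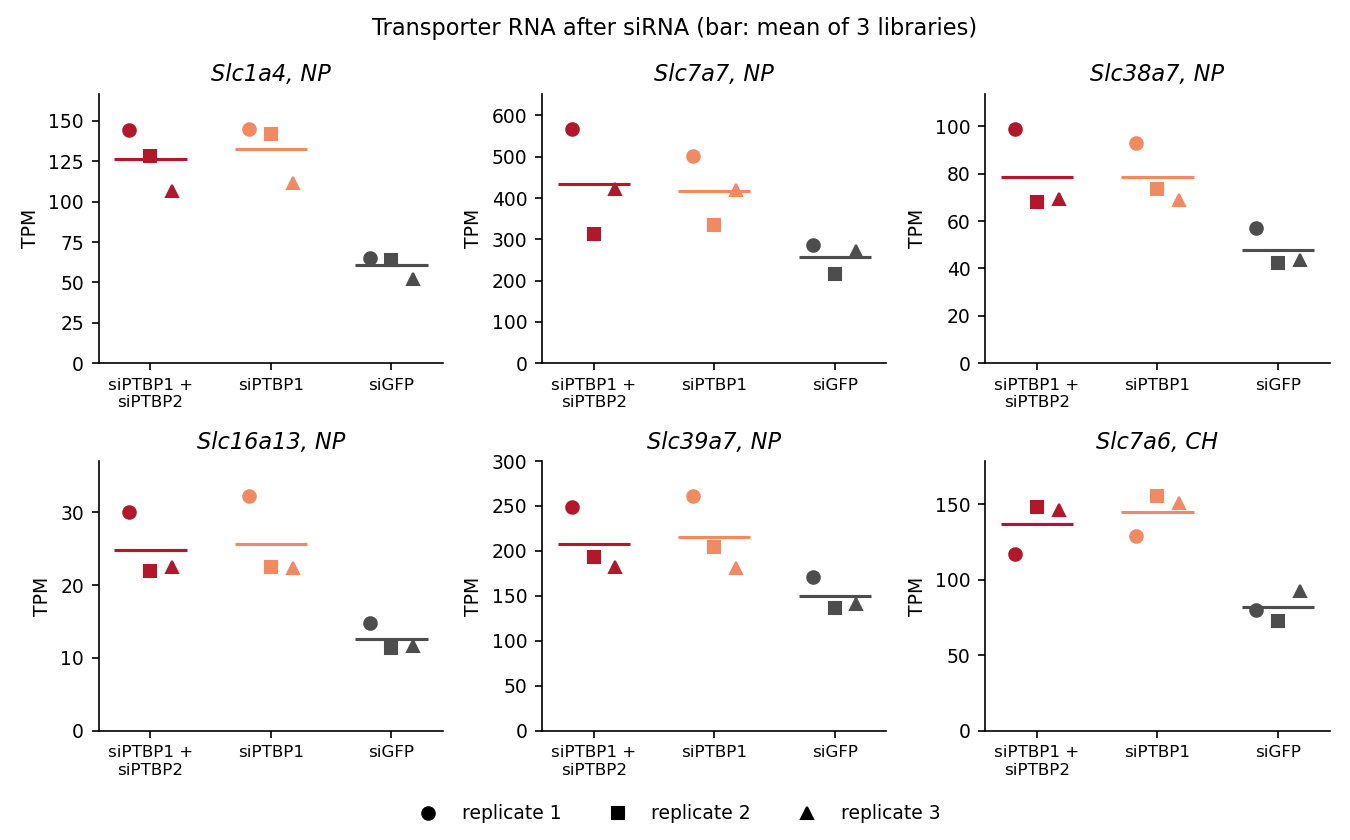
TPM in every library of the double knockdown, siPTBP1 and siGFP for Slc1a4, Slc7a7, Slc38a7, Slc16a13 and Slc39a7 in NP and Slc7a6 in CH, with marker shapes for the replicate numbers and bars for means of 3 libraries. In each panel the 6 knockdown libraries lie above the 3 siGFP libraries; Slc1a4 averages 126.5 and 132.8 TPM in the knockdowns and 60.5 TPM in siGFP.

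The median log2 difference of the tested rows in NP was 0.19 in the double knockdown and 0.21 after siPTBP1, against -0.01 for all genes in each. In CY the medians were 0.04 and 0.05, against 0.00 and 0.06 for all genes, and in CH 0.03 and 0.07, against 0.07 and 0.09. Summed, the 108 rows made up 6296 ± 1074 TPM in NP of the double knockdown and 6342 ± 923 TPM after siPTBP1, against 4839 ± 523 TPM in siGFP (SD, n = 3 each). The ER translocon list stood beside them, with a median of 0.32 in NP of the double knockdown and 0.36 after siPTBP1. Of its 27 genes 1 was called in each, where 0.155% and 0.16% of all genes were called. That gene was Emc1, a subunit of an ER membrane insertase (1.10, limma adjusted p = 0.00756 in the double knockdown, and 1.21, limma adjusted p = 0.00249 after siPTBP1). Mitochondrially encoded RNA in NP was 15.0% to 22.5% of TPM in the double knockdown and 9.31% to 20.2% after siPTBP1, against 9.68% to 15.6% in siGFP. The 8 pluripotency markers summed to 2966 to 3517 TPM in NP of the double knockdown and 3025 to 3814 TPM after siPTBP1, against 4105 to 4334 TPM in siGFP. Of the 8, 0 were called by limma and 1 was lower in each with the block, where 1.84% and 1.88% of all genes were called. Markers of neural progenitors and neurons summed to 48.9 to 54.5 TPM in NP of the double knockdown and 44.3 to 54.5 TPM after siPTBP1, against 43.2 to 48.5 TPM in siGFP. Of these 9 neural genes 8 were tested and 0 called in NP with or without the block, and with the block Sox1 and Rbfox3 were higher in CY and CH of both knockdowns. The block called 2.65% of all genes in CY of the double knockdown and 1.83% after siPTBP1, and in CH 2.12% and 2.45%. Fibroblast markers summed to 65, 53.8 and 38.24 TPM in NP of the double knockdown and 71.15, 64.65 and 36.37 TPM after siPTBP1, against 40.93, 48.04 and 29.23 TPM in siGFP, higher in each replicate number, with Col1a1, Col1a2 and Thy1 as the 3 tested of 5. Trophoblast markers summed to 24.51, 10.23 and 11.62 TPM in NP of the double knockdown and 25.4, 10.41 and 14.01 TPM after siPTBP1, against 31.56, 16.91 and 18.85 TPM in siGFP, lower in each replicate number. No gene of these last lists was called in NP with or without the block. The part of the fractions' makeup or of cell state in the transporters' differences was not tested.

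No shift between fractions was called. By limma a changed difference between NP and CY was called in 0 of 74 rows in the double knockdown and in 0 after siPTBP1. In each, 0.00485% of all genes were called. At an unadjusted p under 0.05 there were 1 and 0 rows. For CH and CY the count of calls was also 0 in both. Of all genes, 0.0582% were called in the double knockdown and 0.0437% after siPTBP1. In each, 1 row had an unadjusted p under 0.05. The double knockdown and siPTBP1 were set against each other as well. Here 0 rows were called in CY, NP or CH, where 0.0%, 0.00485% and 0.107% of all genes were called. In these contrasts 0 rows had an unadjusted p under 0.05.

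Slc1a4 is known as a target of ATF4, a transcription factor of the amino acid and stress response, so other ATF4 targets and the promoters were read beside it. Of 8 transporter genes known to respond to ATF4, only Slc1a4 was called in NP after siPTBP1, where 0.16% of all genes were called. The median of the list was 0.41, and 0.42 in the double knockdown. The list holds Slc1a4 and was read after its call, and its difference from the other rows was not tested. Of the 16 ATF4 response genes outside the transporters, 0 were called in any knockdown contrast in CY, NP or CH by limma. With the block Atf5 was higher in CY of the double knockdown and after siPTBP1, where 2.65% and 1.83% of all genes were called. Atf4 itself differed by -0.14 in NP after siPTBP1 (limma adjusted p = 1), and Asns, asparagine synthetase and a standard ATF4 target, by -0.33 (limma adjusted p = 1).

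Promoter windows of 300 bases, 250 before to 50 after a RefSeq gene start (GRCm38.p6), were given for 52 of the 74 tested rows, and a gene counted as holding a motif when any of its windows did. The C/EBP-ATF response element, searched as TGATGNAA on both strands, occurred in 3 of them, Slc1a4, Slc7a7 and Slc7a11 (the cystine importer), or 5.77%. It occurred in 2.86% of the 11803 tested genes with a window. The windows of Slc1a4 and Slc7a7 are shown because both genes were called higher in NP, Slc7a7 with the block only, and hold the element, which is in capitals. That of Slc1a4 reads on the opposite strand, as TTGCATCA, and begins 4 bases before the gene start.
Slc1a4, chr11:20332664-20332963, minus strand: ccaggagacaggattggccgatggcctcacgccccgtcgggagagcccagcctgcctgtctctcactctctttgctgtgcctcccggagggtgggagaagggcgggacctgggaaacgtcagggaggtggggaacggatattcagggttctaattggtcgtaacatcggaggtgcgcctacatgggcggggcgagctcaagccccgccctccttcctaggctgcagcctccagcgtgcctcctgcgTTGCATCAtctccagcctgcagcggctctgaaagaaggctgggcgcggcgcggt
Slc7a7, chr14:54417895-54418194, minus strand: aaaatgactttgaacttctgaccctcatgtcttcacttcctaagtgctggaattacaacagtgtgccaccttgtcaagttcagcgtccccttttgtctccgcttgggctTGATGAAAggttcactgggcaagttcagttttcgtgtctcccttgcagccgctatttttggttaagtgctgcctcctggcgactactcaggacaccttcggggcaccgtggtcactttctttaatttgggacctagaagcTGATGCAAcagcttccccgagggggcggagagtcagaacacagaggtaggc

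A match is a run of letters and not a measured binding site. The Slc7a7 window holds 2 matches, which begin 141 bases and 1 base before the start, and it is 1 of 5 start sites listed for the gene. The E-box TCACGTGA, known from lysosomal genes, was in 0 of the 52, against 1.98% of tested genes with a window. The windows of Slc38a7, Slc7a6 and Slc39a7 hold no match, and Slc16a13 had no window. The metal response element cores TGCACNC and TGCGCNC, letters known from zinc-regulated genes, occurred in the windows of 13 and 14 of the 52 genes, against 15.4% and 29.2% of tested genes with a window. Slc30a1, the zinc exporter induced by the metal sensor Mtf1, held both. Neither Slc30a1 nor Mt1 or Mt2, the metallothioneins that store zinc, was called in a knockdown contrast.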

How the data were processed

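Polyadenylated RNA from CH, NP and CY of E14 cells was measured after siRNA in 27 libraries. The authors deposited a table of TPM per Ensembl gene ID; per the submitters' processing notes STAR and kallisto were used with mm10, and their versions, the annotation and the strand setting are not given in the sources used here. Libraries were TruSeq Stranded mRNA, per the labels' protocols.

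From these values log2(TPM + 1), which understates changes of low genes, was fitted with limma 3.58.1 in R 4.3.3 (moderated tests with trend and robust options, both directions, 9 group means, 18 residual degrees of freedom). The 20611 genes that reached 1 TPM in 3 or more libraries entered, and an adjusted p under 0.05 is a call. On data simulated for siPTBP1 against siGFP in NP, the fit recovered 24 of 100 changes of 1 log2 unit. It recovered 82 of 100 changes of 2 log2 units and made 5 false calls. The simulated libraries had independent noise, without the shared deviations by replicate number described below. The labels call the replicates biological and do not say what separates them, so p-values speak only for the spread among these libraries. Libraries with the same replicate number deviated together: over 108 pairs the correlation of deviations from group means was at least 0.13 (median 0.365). Other pairs had a median of -0.213 and reached 0.286, so the ranges overlapped. Deviations cancel within a group, so that negative median is no separate support. All 27 libraries correlated best with one of their own number, so the numbers pair the libraries, by the data and not by the labels. The block fit had 16 residual degrees of freedom.

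Named genes are the leading member of each family, those with at least 50 TPM in siGFP CY, those called in a knockdown contrast with or without the block, up to 6 of the largest differences between fractions in each direction, rows matched by symbol that are no transporter, and up to 3 members of each other list. The largest differences between fractions were taken among called rows with a mean of at least 1 TPM and no overlap between the groups compared. The absence of overlap in genes named by that rule is therefore no separate support. Members and lists were chosen with earlier results of these data known. Coordinates and coding sequences came from GENCODE M21, which held all 108 rows, 105 with a coding sequence. Alternatives were other pseudocounts, filters and scalings, the block, fewer groups and left-out libraries.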

Additional observations from a re-analysis of the deposited data

How the results depend on the processing

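Of the 8 counts of called rows above 0, 115 of 128 recalculations stayed within 1.5 times the value given. The other 12 counts were 0, and their staying at 0 in 205 of 216 recalculations says little about stability. For the rest the cause was not tested. With the replicate block the counts were 1, 5 and 2 after siPTBP1 in CY, NP and CH, 1, 4 and 1 in the double knockdown, and 43 for CH against NP in siGFP. After siPTBP1 in NP, a pseudocount of 0.1, no filter and a fit of the groups compared only gave 0. After siPTBP1 in CH, no filter gave 1, quantile normalization 2, and leaving out replicate 1 of every group 1. In the double knockdown, median-ratio scaling and rescaling without mitochondrial genes and Mir6236 gave 1 in NP, and leaving out replicate 1 of every group gave 1 in CH. With quantile normalization CH against CY gave 40 in siGFP, 36 after siPTBP1 and 41 in the double knockdown. Leaving out 1 library at a time gave 0 to 1 call after siPTBP1 in NP, 42 to 47 for NP against CY and 16 to 28 for CH against NP in siGFP. No named difference changed sign over 528 recalculations of 33 differences, and 16 lost and 20 gained a call. These differences were named for being called or large, and some settings, such as the block, leave the estimate as it is. An unchanged sign therefore says little about stability. Medians moved by more than the spread between replicates in 113 of 344. TPM gives no depth, so differences of low genes, such as Slc6a7, have no counting error attached.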
